A study of Homo sapiens with 12 samples.

Results

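Messenger RNA of chemokines, cytokines and the adhesion molecule ICAM1 was followed in pancreatic cancer cells grown inside hydrogels. The 10 genes, chosen by symbol, were the neutrophil-attracting chemokine genes CXCL1, CXCL2, CXCL3 and CXCL8, the chemokine genes CCL2 and CCL20, the cytokine genes IL6, LIF and IL1A, and ICAM1. Of them, 9 were measured among the 16299 genes of the table, and IL6 was not analysed here. The cells were PANC1 and BXPC3, established human lines of pancreatic ductal adenocarcinoma, a tumour with a dense and stiff matrix. Each line was cultured in 7.5% gelatin methacryloyl (GelMA, gelatin carrying groups that let it be cross-linked), in 5% GelMA or in collagen. That gave 6 groups of 2 libraries, 12 in all. Cells of every group had been grown in high-glucose DMEM with foetal bovine serum and antibiotics. No genetic change or drug was applied, and each line stands for 1 tumour. The sources used here do not state gel stiffness, time in the gel or whether replicates came from separate cultures. P-values therefore cover the spread between these libraries alone, which may be technical.

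Chemokines are small secreted proteins that guide white blood cells along a gradient. The CXC chemokines listed here act on the receptors CXCR1 and CXCR2 of neutrophils, CCL2 acts on CCR2 of monocytes, and CCL20 acts on CCR6 of lymphocytes and dendritic cells. LIF belongs to the interleukin-6 family and signals through LIFR and the shared receptor chain gp130 (IL6ST), while IL1A is an alarm cytokine that acts on IL1R1 with IL1RAP. ICAM1 is a membrane protein to which leukocyte integrins bind. Transcription of most of these genes is known to be induced by the factor NF-kB, often together with AP-1, and pancreatic cancer cells can secrete many of them without immune cells present.

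The regions before the start sites of 5 of these genes are printed because 4 of the genes (CXCL1, CXCL2, CXCL8 and ICAM1) carried the matrix differences below and CXCL3 is the near copy of the first pair. Each is the 250 bases upstream of a RefSeq start on GRCh38.p14, 5′ to 3′ on the gene's strand. Some RefSeq starts differ from the GENCODE 29 gene spans given below. The ICAM1 window lies within that gene's span, and the windows of CXCL2, CXCL3 and CXCL8 overlap theirs in part. Capitals mark matches on either strand to the NF-kB core GGNNNTTCC or to the AP-1 motif TGANTCA, which did not overlap each other in any window. The windows are chr4:73869143-73869392 on the plus strand for CXCL1, chr4:74099196-74099445 on the minus strand for CXCL2, chr4:74038690-74038939 on the minus strand for CXCL3, chr4:73740319-73740568 on the plus strand for CXCL8 and chr19:10270870-10271119 on the plus strand for ICAM1.
CXCL1: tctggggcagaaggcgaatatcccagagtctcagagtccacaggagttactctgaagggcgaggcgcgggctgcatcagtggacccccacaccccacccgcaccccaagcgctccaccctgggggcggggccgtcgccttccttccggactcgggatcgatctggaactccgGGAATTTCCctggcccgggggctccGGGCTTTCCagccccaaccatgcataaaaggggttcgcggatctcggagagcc
CXCL2: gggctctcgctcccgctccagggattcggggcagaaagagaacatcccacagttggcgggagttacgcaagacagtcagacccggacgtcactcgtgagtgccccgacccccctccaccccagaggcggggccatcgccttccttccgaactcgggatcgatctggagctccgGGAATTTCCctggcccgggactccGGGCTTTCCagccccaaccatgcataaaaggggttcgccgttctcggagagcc
CXCL3: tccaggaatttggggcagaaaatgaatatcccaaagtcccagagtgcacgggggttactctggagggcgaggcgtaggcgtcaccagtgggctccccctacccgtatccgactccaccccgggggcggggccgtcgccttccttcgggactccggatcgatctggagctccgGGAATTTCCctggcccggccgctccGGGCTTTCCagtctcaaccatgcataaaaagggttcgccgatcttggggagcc
CXCL8: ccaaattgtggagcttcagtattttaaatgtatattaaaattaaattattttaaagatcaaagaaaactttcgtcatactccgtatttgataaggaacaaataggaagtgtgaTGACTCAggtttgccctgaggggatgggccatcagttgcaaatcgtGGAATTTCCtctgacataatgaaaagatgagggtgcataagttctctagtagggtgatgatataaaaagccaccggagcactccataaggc
ICAM1: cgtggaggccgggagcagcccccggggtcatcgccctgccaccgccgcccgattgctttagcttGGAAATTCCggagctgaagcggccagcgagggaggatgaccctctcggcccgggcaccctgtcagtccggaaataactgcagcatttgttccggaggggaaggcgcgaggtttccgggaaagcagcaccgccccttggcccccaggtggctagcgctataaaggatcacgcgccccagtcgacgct

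The first 3 windows each held GGAATTTCC and, nearer the start, GGGCTTTCC. Counting the base just before the start as -1, these began at -78 and -53 in CXCL1 and CXCL3 and at -77 and -53 in CXCL2. With windows aligned over their full length and gaps allowed, CXCL1 matched CXCL3 at 84.0% of 250 bases and CXCL2 at 78.8%. CXCL2 matched CXCL3 at 78.4%. CXCL8 matched these 3 at 125 to 138 bases, and the match between unrelated windows was not taken for comparison. Its window held GGAATTTCC from -91 and the AP-1 match TGACTCA from -137. The ICAM1 window held GGAAATTCC from -186. Of 8 genes in the set with an entry, 7 held an NF-kB core match, against 17.12% of all 35116 promoter windows searched. An AP-1 match was held by 2 (CXCL8 and IL1A), against 6.57% of all windows. The set is counted by gene and the background by window, so the shares are not like for like. The 8 genes include the near copies CXCL1, CXCL2 and CXCL3, and IL6, which has no expression value here. A match describes letters and not a bound site. Promoters of CCL2 and LIF are not shown.

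**Figure D1:**
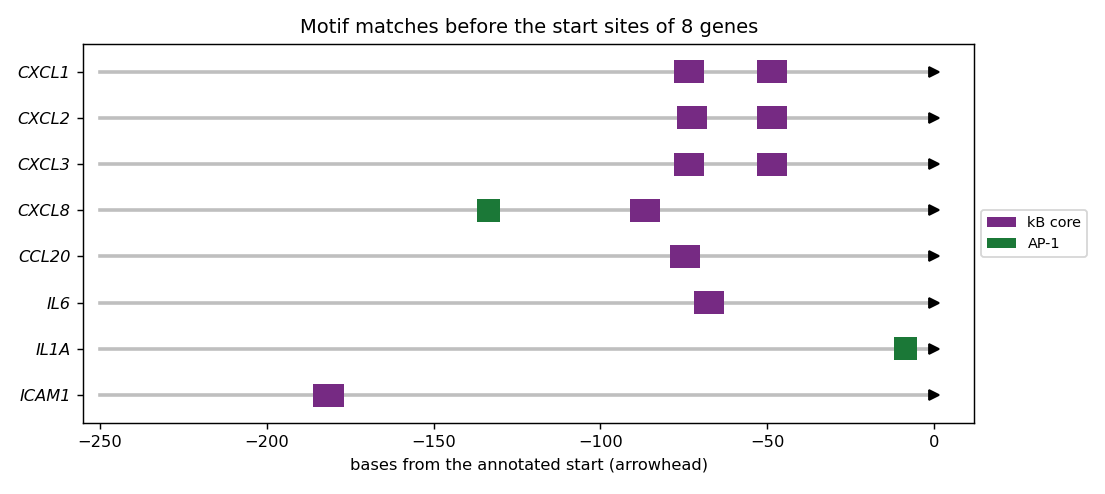
Motif matches in the 250 bases before 1 start site of each of 8 genes, with distance from the annotated start in bases on the x axis, purple for the NF-kB core and green for AP-1. CXCL1, CXCL2 and CXCL3 share a pair of NF-kB core matches at about the same distances, IL1A has an AP-1 match only, and IL6, shown for its sequence, has no expression value here.

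CXCL8, CXCL1, CXCL3 and CXCL2 lie in this order on chromosome 4 in a cluster of 9 CXC chemokine genes that spans 358.8 kb in GENCODE 29 on GRCh38. The cluster runs from CXCL8 (ENSG00000169429, 73740506 to 73743716, plus strand) past CXCL1 (ENSG00000163739, 73869393 to 73871242, plus strand) to CXCL3 (ENSG00000163734, 74036589 to 74038807, minus strand) and CXCL2 (ENSG00000081041, 74097035 to 74099293, minus strand). ICAM1 (ENSG00000090339) lies on chromosome 19, 10270835 to 10286615, plus strand, and LIF (ENSG00000128342) on chromosome 22, 30240447 to 30246851, minus strand. CCL2 (ENSG00000108691) lies on chromosome 17, 34255218 to 34257203, plus strand. CCL20 (ENSG00000115009, 227805739 to 227817564, plus strand) and IL1A (ENSG00000115008, 112773915 to 112784590, minus strand) are both on chromosome 2. In CXCL2, 9.239% of 50-base windows of the transcript also occur in CXCL1 or CXCL3, and the share was 5.725% in CXCL1, 5.263% in CXCL3 and 0% in CXCL8. Values of CXCL1, CXCL2 and CXCL3 are uncertain to that extent, as are those of LIF and ICAM1, which have antisense partners with overlapping exons in an assay whose strand setting is unknown.

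Levels below are RPKM (reads scaled for gene length and library total), the antilog of the deposited log2 values, and differences are log2 differences with their standard error (SE) and a limma p-value adjusted over 15794 genes by the Benjamini-Hochberg method. Calls required an adjusted p under 0.05. SMAD4, deleted in BXPC3, was at 3.94 to 4.55 log2 RPKM in the 6 PANC1 libraries and at -5.92 to -5.35 in the 6 BXPC3 libraries. Replicates correlated at 0.9921 to 0.9948 across genes. All 5 epithelial markers reached 1 RPKM in every group, and the leukocyte marker PTPRC was not analysed here. Of 5 fibroblast markers 2 were measured (COL1A1 and PDGFRA), and in PANC1 only COL1A1 reached 1 RPKM. Their summed level in PANC1, in effect that of COL1A1, was 211 to 418 RPKM in GelMA and 90.1 to 91.5 RPKM in collagen. Over 4 measured immune markers of 7 the PANC1 sums were 9.72 to 11.6 RPKM in GelMA and 6.65 to 9.21 RPKM in collagen. The BXPC3 sums of these immune markers were higher, at 19.5 to 26.1 RPKM in GelMA and 17.9 to 19.4 RPKM in collagen. The part of these markers in the results of either line was not tested. Sequencing depth is unknown, so no counting error could be given.

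In PANC1, ICAM1 was lower than in collagen at both GelMA percentages and lowest at 7.5%. CXCL2 in PANC1 was lower than in collagen at 7.5% GelMA and not at 5%, and CXCL1 was lower in 7.5% than in 5% GelMA. In BXPC3, CXCL2, CXCL8 and LIF were higher in GelMA than in collagen by similar amounts at both percentages. The remaining genes separated the lines more than they separated the gels. The plot of levels in all libraries shows these patterns.

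**Figure D2:**
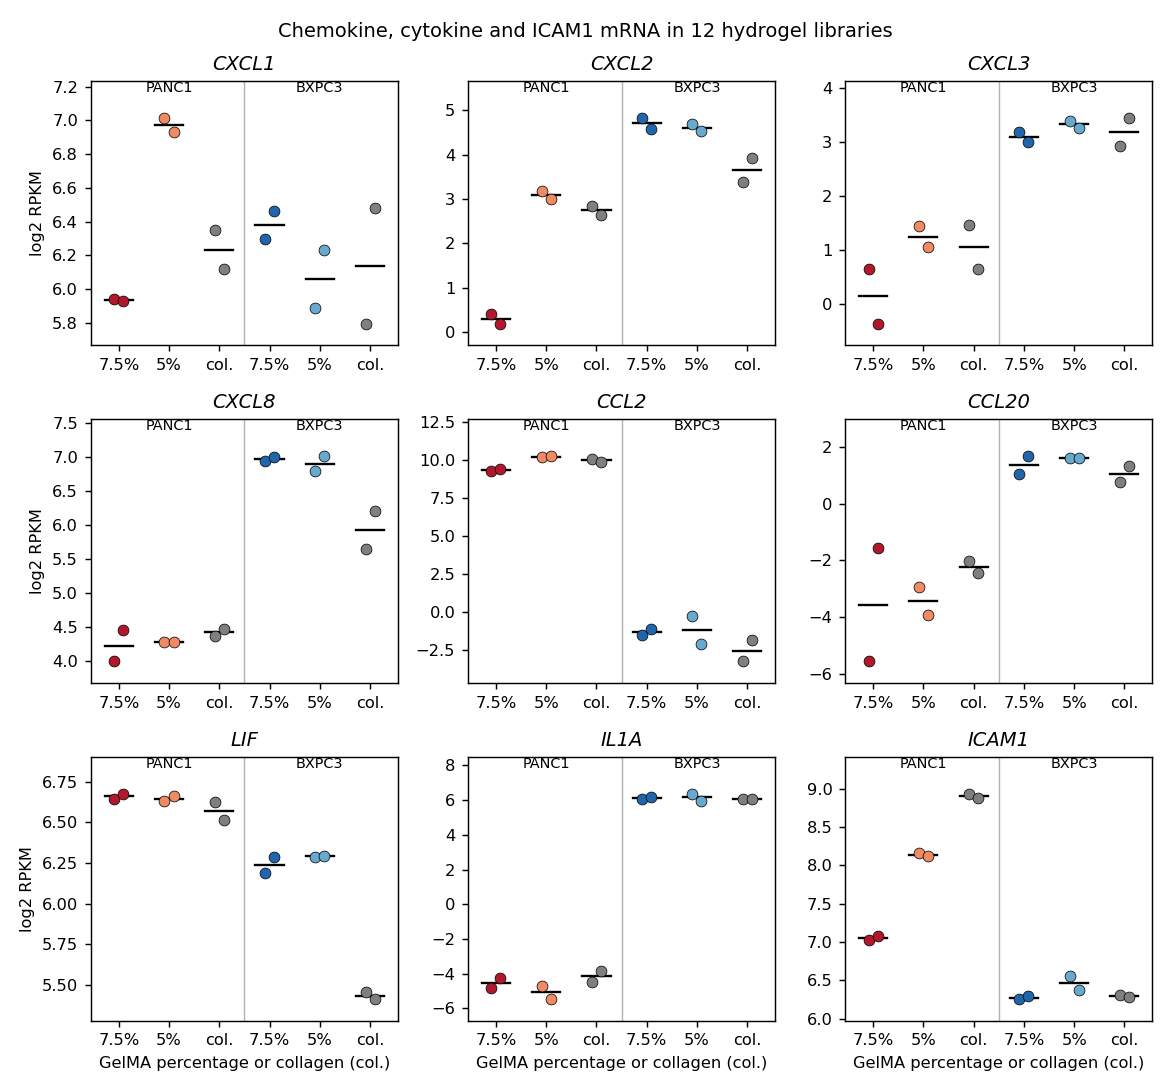
Level of each of the 9 measured genes (y axis, log2 RPKM, not starting at 0) in PANC1 (left) and BXPC3 (right) in 7.5% GelMA, 5% GelMA and collagen (col.), where each point is 1 library and each bar the mean of 2. ICAM1 in PANC1 forms 3 separate steps, CXCL2 in PANC1 lies under 1.4 RPKM in 7.5% GelMA, and LIF in BXPC3 lies lowest in collagen.

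ICAM1, the ligand through which leukocytes grip a cell, showed the clearest steps between matrices. In PANC1 it had 130.2 and 136 RPKM in 7.5% GelMA, 286 and 279 RPKM in 5% GelMA, and 489 and 473 RPKM in collagen. In BXPC3 it had 76.3 and 78.6 RPKM in 7.5% GelMA, 93.9 and 83.2 RPKM in 5% GelMA, and 79.3 and 78.1 RPKM in collagen. The 3 PANC1 groups did not overlap, and every PANC1 library was above every BXPC3 library. In bulk RNA such a fall cannot be told apart between fewer cells that hold the transcript and less of it per cell. Over both GelMA percentages against collagen, ICAM1 fell in PANC1 by 1.31 ± 0.05 log2 (SE, adjusted p = 2.74e-08), a 2.48-fold lower level. Between 7.5% and 5% GelMA, both part of that mean, it differed by -1.09 ± 0.05 log2 (adjusted p = 4.02e-06), a 2.12-fold lower level in 7.5% GelMA. In BXPC3 the GelMA difference was 0.07 ± 0.05 log2 (adjusted p = 0.246), with a 95% interval of -0.03 to 0.17.

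Among the CXC chemokines, CXCL2 had the largest difference between 7.5% and 5% GelMA in PANC1. PANC1 libraries had 1.34 and 1.14 RPKM of CXCL2 in 7.5% GelMA, 9.04 and 8.03 RPKM in 5% GelMA, and 7.22 and 6.23 RPKM in collagen. The low level was that of 7.5% GelMA, while 5% GelMA lay above collagen without overlap, by 0.35 ± 0.17 log2 (adjusted p = 0.132). BXPC3 libraries had 28.1 and 24.0 RPKM in 7.5% GelMA, 25.6 and 23.1 RPKM in 5% GelMA, and 10.4 and 15.2 RPKM in collagen. Here both GelMA groups were above collagen and overlapped each other. In PANC1, CXCL2 fell by 2.78 ± 0.17 log2 (adjusted p = 1.34e-05) in 7.5% against 5% GelMA, a 6.89-fold lower level. Over both percentages it fell in PANC1 by 1.05 ± 0.15 log2 (adjusted p = 0.000227) and rose in BXPC3 by 1.00 ± 0.15 log2 (adjusted p = 0.000777), each against collagen. The fall over both percentages in PANC1 came from 7.5% GelMA, since 5% GelMA lay above collagen there as in BXPC3.

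CXCL1, first described as a growth factor of melanoma cells and a strong attractant of neutrophils, was abundant in both lines. It had 61.5 and 61.0 RPKM in PANC1 in 7.5% GelMA, 129 and 122 RPKM in 5% GelMA, and 81.5 and 69.5 RPKM in collagen. In BXPC3 it had 78.7 and 88.3 RPKM in 7.5% GelMA, 59.4 and 75.2 RPKM in 5% GelMA, and 55.6 and 89.3 RPKM in collagen. The PANC1 groups did not overlap, with 5% GelMA highest, while the BXPC3 collagen libraries spanned both GelMA groups. CXCL1 fell in PANC1 by 1.03 ± 0.19 log2 (adjusted p = 0.00432) in 7.5% against 5% GelMA. It rose by 0.74 ± 0.19 log2 (adjusted p = 0.00905) in 5% GelMA against collagen, a call lost without PANC1 collagen replicate 2 (adjusted p = 0.065) or without PANC1 5% GelMA replicate 1 (adjusted p = 0.0521). In BXPC3 the GelMA difference of 0.08 log2 (adjusted p = 0.727) became 0.43 (adjusted p = 0.0393) without collagen replicate 2, the library at 89.3 RPKM.

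CXCL3, the near copy of CXCL1 and CXCL2, had a lower mean RPKM than either in all 6 groups. PANC1 had 1.57 and 0.774 RPKM in 7.5% GelMA, 2.70 and 2.06 RPKM in 5% GelMA, and 2.74 and 1.56 RPKM in collagen. BXPC3 had 9.06 and 7.94 RPKM in 7.5% GelMA, 10.4 and 9.57 RPKM in 5% GelMA, and 7.59 and 10.8 RPKM in collagen. The 7.5% and 5% GelMA groups did not overlap in PANC1, but the difference of -1.10 ± 0.35 log2 was not called (adjusted p = 0.0520). It was called without PANC1 7.5% GelMA replicate 1, at -1.61 (adjusted p = 0.0178), and without either PANC1 collagen library (adjusted p = 0.0374 without replicate 1 and 0.0370 without replicate 2). Against collagen, 7.5% GelMA was lower by 0.91 ± 0.35 log2 (adjusted p = 0.0478), and this call did not last. Its difference was -0.50 without PANC1 collagen replicate 1, -0.40 without PANC1 7.5% GelMA replicate 2 and -1.42 without PANC1 7.5% GelMA replicate 1. On the log2(RPKM + 1) scale it was -0.54 (adjusted p = 0.0578), and without any 1 of the 6 BXPC3 libraries the adjusted p was 0.0501 to 0.0644. Without PANC1 5% GelMA replicate 1 it was 0.0568 and without replicate 2 it was 0.0566.

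CXCL8, interleukin-8, was one of the more abundant of these transcripts in BXPC3. PANC1 had 15.9 and 21.8 RPKM in 7.5% GelMA, 19.5 and 19.4 RPKM in 5% GelMA, and 20.7 and 22.2 RPKM in collagen. BXPC3 had 123 and 127 RPKM in 7.5% GelMA, 110.1 and 129 RPKM in 5% GelMA, and 50.02 and 73.3 RPKM in collagen. All 4 BXPC3 libraries in GelMA were above both in collagen, and the PANC1 groups lay close together. In BXPC3, CXCL8 rose by 1.01 ± 0.15 log2 (adjusted p = 0.00076) in GelMA against collagen, a 2.01-fold higher level. In PANC1 the difference was -0.17 ± 0.15 log2 (adjusted p = 0.363), with a 95% interval of -0.51 to 0.17.

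CCL2, the monocyte attractant, ranked at the 99.39 percentile of all genes by its PANC1 mean and at the 7.05 percentile by its BXPC3 mean. In PANC1 it had 632 and 685 RPKM in 7.5% GelMA, 1183 and 1222 RPKM in 5% GelMA, and 1078 and 938 RPKM in collagen. In BXPC3 it had 0.351 and 0.451 RPKM in 7.5% GelMA, 0.813 and 0.227 RPKM in 5% GelMA, and 0.103 and 0.276 RPKM in collagen. The 7.5% GelMA libraries were the lowest in PANC1 and did not overlap the others. The difference from 5% GelMA was -0.87 ± 0.54 log2 (adjusted p = 0.303), with an error shared with the low and scattered BXPC3 values. It was called with a fit to the 6 PANC1 libraries alone (adjusted p = 0.00037) and on the log2(RPKM + 1) scale, at -0.87 (adjusted p = 0.00231). In BXPC3 every level of CCL2 was under 1 RPKM, and its GelMA difference of 1.29 ± 0.46 log2 was not called (adjusted p = 0.0527). Without BXPC3 collagen replicate 2 that difference was 2.01 (adjusted p = 0.0223), and without BXPC3 5% GelMA replicate 2 it was 1.76 (adjusted p = 0.00475).

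CCL20, which draws CCR6-bearing cells, was low in both lines. The 6 PANC1 libraries ran from 0.0213 to 0.339 RPKM, and both of these values came from 7.5% GelMA. BXPC3 had 2.07 and 3.19 RPKM in 7.5% GelMA, 3.06 and 3.08 RPKM in 5% GelMA, and 1.71 and 2.48 RPKM in collagen, so the lines did not overlap. In PANC1 the difference between 7.5% and 5% GelMA was -0.14 ± 0.97 log2 (adjusted p = 0.943). It was -2.14 (adjusted p = 0.0238) without 7.5% GelMA replicate 2 and 1.86 (adjusted p = 0.0351) without replicate 1, so that no direction could be given.

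LIF, the interleukin-6 family member, was abundant in both lines. PANC1 had 100.01 and 102 RPKM in 7.5% GelMA, 99.0 and 101 RPKM in 5% GelMA, and 98.5 and 91.2 RPKM in collagen. BXPC3 had 73.0 and 78.0 RPKM in 7.5% GelMA, 78.1 and 78.3 RPKM in 5% GelMA, and 43.9 and 42.5 RPKM in collagen. BXPC3 in collagen stood apart from the other 5 groups, and every PANC1 library was above every BXPC3 library. In BXPC3, LIF rose by 0.83 ± 0.04 log2 (adjusted p = 2.42e-06) in GelMA against collagen, a 1.78-fold higher level. In PANC1 the difference was 0.09 ± 0.04 log2 (adjusted p = 0.0943), and it was 0.14 (adjusted p = 0.0287) without collagen replicate 1.

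IL1A, the precursor of an alarm cytokine released from damaged epithelium, was abundant in BXPC3 alone. The 6 PANC1 libraries had 0.0226 to 0.0689 RPKM, levels at which a difference depends on the unknown offset of the log scale. BXPC3 had 66.7 and 71.5 RPKM in 7.5% GelMA, 82.0 and 62.7 RPKM in 5% GelMA, and 66.8 and 67.4 RPKM in collagen. The BXPC3 groups overlapped, with a GelMA difference of 0.07 ± 0.27 log2 (adjusted p = 0.869). In PANC1 the 5% GelMA difference from collagen was -0.92 ± 0.31 log2 and passed the threshold (adjusted p = 0.0330), in a gene that entered the test through its BXPC3 levels alone. It was -0.04 (adjusted p = 0.820) on the log2(RPKM + 1) scale, -0.62 (adjusted p = 0.196) without PANC1 collagen replicate 2 and -0.53 (adjusted p = 0.227) without PANC1 5% GelMA replicate 2. The call was also lost without BXPC3 7.5% GelMA replicate 1 (adjusted p = 0.0505) or replicate 2 (0.0506) and in the fit to PANC1 alone (0.147). Over both percentages the difference of -0.64 ± 0.27 log2 was not called (adjusted p = 0.0652).

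Counted over the 9 genes, 2 were called in GelMA against collagen in PANC1, both lower, when 55.1% of all genes tested were called and 27.4% were called lower. The median difference was -0.36 log2 over the 9 genes and -0.01 over all genes. In BXPC3, 3 of 9 were called, all higher, when 36.1% of all genes were called and 19.4% were called higher. The medians there were 0.45 log2 over the 9 genes and 0.01 over all genes. With both directions counted, the called share of the 9 genes lay under that of all genes in PANC1 and near it in BXPC3. The BXPC3 count rose without BXPC3 collagen replicate 2 or without BXPC3 5% GelMA replicate 2. The PANC1 count rose without PANC1 collagen replicate 1 or without PANC1 7.5% GelMA replicate 2. In each of these fits fewer of all genes were called than with all libraries, and 1 group was left with 1 library. With a fit to PANC1 alone it was 4, when 9235 of 15794 genes were called. No result about the set is read from these counts.

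Between 7.5% and 5% GelMA, 3 of 9 were lower in PANC1 (CXCL1, CXCL2 and ICAM1), when 18.7% of all genes were called and 9.56% were called lower. The median difference was -0.87 log2 over the 9 genes and 0.01 over all genes. The count rose without 7.5% GelMA replicate 1, a fit with 1 library in that group, in which fewer of all genes were called. In that fit CXCL3 was at -1.61 log2. CCL20 was at 1.86 log2, a reversed sign between PANC1 levels under 1 RPKM, in a gene that entered the test through BXPC3. In BXPC3, limma called 0 of 9 genes in this comparison, and 0.0823% of all genes. Only ICAM1 had an unadjusted p under 0.05 there, at -0.19 ± 0.05 log2 (adjusted p = 0.275). The 95% interval of CXCL2 in that comparison ran from -0.29 to 0.48 log2, which does not reach the fall seen in PANC1.

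**Figure D3:**
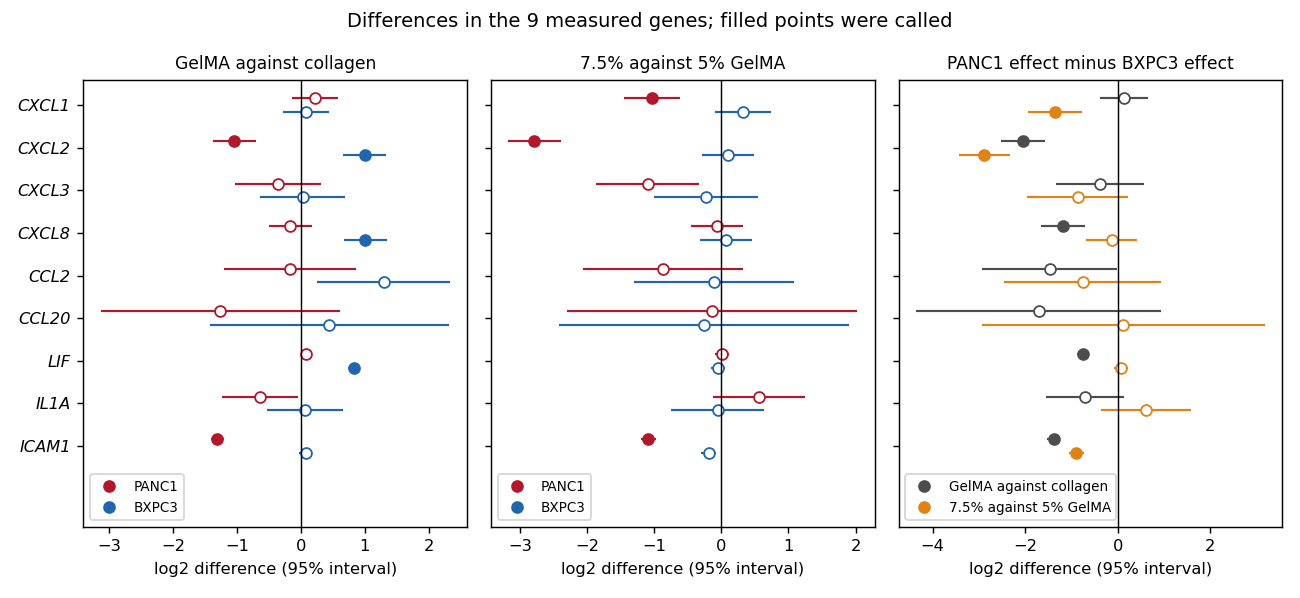
Log2 differences (x axis) of the 9 genes with 95% intervals for GelMA against collagen, for 7.5% against 5% GelMA, and for the PANC1 effect minus the BXPC3 effect, where filled points were called at an adjusted p under 0.05. CXCL2 and ICAM1 were called and lie left of 0 in PANC1 in both matrix comparisons, where some uncalled genes also lie left of 0. For GelMA against collagen in BXPC3, CXCL2, CXCL8 and LIF were called and lie right of 0, as do the uncalled estimates of the other genes.

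The percentages were also set against collagen one at a time, with the same 2 collagen libraries per line serving both comparisons. In PANC1, 7.5% GelMA gave 3 calls of 9, when 53.8% of all genes were called. These were falls of 1.86 ± 0.05 log2 in ICAM1 (adjusted p = 7.5e-09), 2.44 ± 0.17 log2 in CXCL2 (adjusted p = 2.19e-06) and, in CXCL3, the fall already described. In PANC1, 5% GelMA also gave 3 of 9, when 46.2% of all genes were called, namely the rise of CXCL1, a fall of 0.77 ± 0.05 log2 in ICAM1 (adjusted p = 2.97e-06) and the IL1A difference, between levels far under 1 RPKM, from which no direction is drawn. Without PANC1 collagen replicate 2 only ICAM1 was called. CCL2 in PANC1, at -0.61 ± 0.54 log2 in 7.5% GelMA (adjusted p = 0.363), was called in the fit to that line alone (adjusted p = 0.000281).

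In BXPC3, 7.5% GelMA against collagen gave 3 of 9, when 29.8% of all genes were called. CXCL2 rose by 1.05 ± 0.17 log2 (adjusted p = 0.00177), CXCL8 by 1.04 ± 0.17 log2 (adjusted p = 0.00185) and LIF by 0.80 ± 0.05 log2 (adjusted p = 9.39e-06). Without BXPC3 collagen replicate 2, CXCL1 and CCL2 were called as well. For 5% GelMA there were 4 of 9, when 29.9% of all genes were called. The rises were 0.95 ± 0.17 log2 in CXCL2 (adjusted p = 0.00304), 0.97 ± 0.17 log2 in CXCL8 (adjusted p = 0.00278) and 0.86 ± 0.05 log2 in LIF (adjusted p = 9.04e-06). ICAM1 in 5% GelMA, higher by 0.17 ± 0.05 log2 (adjusted p = 0.0364), lost its call without 5% GelMA replicate 1, where the difference was 0.08 (adjusted p = 0.231), and was at 0.26 without replicate 2. It was also lost without BXPC3 collagen replicate 1 (adjusted p = 0.0779) or 2 (0.136), without BXPC3 7.5% GelMA replicate 2 (0.05002) and without either PANC1 5% GelMA library (0.0538 and 0.0539).

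Whether the lines differed in their response was tested directly, as the PANC1 effect minus the BXPC3 effect. For GelMA against collagen 4 of 9 genes were called, all with a lower effect in PANC1 than in BXPC3. Of all genes, 39.1% were called and 20.6% were called with a lower effect in PANC1. The differences were -2.05 ± 0.21 log2 for CXCL2 (adjusted p = 5.89e-05), -1.18 ± 0.21 for CXCL8 (adjusted p = 0.00174), -0.75 ± 0.06 for LIF (adjusted p = 8.8e-06) and -1.38 ± 0.06 for ICAM1 (adjusted p = 4.9e-07). For 7.5% against 5% GelMA 3 of 9 were called, again all with a lower effect in PANC1. Here 8.97% of all genes were called and 4.96% were called with a lower effect in PANC1. These differences were -1.35 ± 0.26 log2 for CXCL1 (adjusted p = 0.0131), -2.88 ± 0.25 for CXCL2 (adjusted p = 0.000285) and -0.90 ± 0.07 for ICAM1 (adjusted p = 0.000285). The CXCL1 call was lost without BXPC3 5% GelMA replicate 1 (adjusted p = 0.0530), BXPC3 7.5% GelMA replicate 2 (0.0507) or PANC1 5% GelMA replicate 1 (0.0506).

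Averaged over the 3 matrices, 8 of 9 genes differed between PANC1 and BXPC3, when 91.8% of all genes did. CCL2, ICAM1 and LIF were higher in PANC1, by 11.56 ± 0.31, 1.69 ± 0.03 and 0.64 ± 0.03 log2 (adjusted p = 3.66e-11, 1.76e-12 and 1.37e-09). Lower in PANC1 were IL1A at -10.70 ± 0.18 log2, CCL20 at -4.41 ± 0.56, CXCL3 at -2.38 ± 0.20, CXCL8 at -2.29 ± 0.10 and CXCL2 at -2.27 ± 0.10, with adjusted p from 1.07e-12 to 2.01e-05. On the log2(RPKM + 1) scale the difference was -6.07 for IL1A and -1.61 for CCL20. CCL2 entered the test through its PANC1 levels alone, and CCL20 and IL1A through their BXPC3 levels alone. Their p-values are therefore no support for these line differences, which rest on the levels given above. CXCL1 was not called, at 0.19 ± 0.11 log2 (adjusted p = 0.122), and was called at 0.30 (adjusted p = 0.00241) without BXPC3 collagen replicate 2.

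Ranked by mean RPKM over the 6 groups, ICAM1 ran from PANC1 in collagen through 5% and 7.5% GelMA to the 3 BXPC3 groups, of which 7.5% GelMA and collagen overlapped. CXCL2 was highest in BXPC3 in 7.5% and 5% GelMA, which overlapped, then came BXPC3 in collagen, PANC1 in 5% GelMA and PANC1 in collagen, and PANC1 in 7.5% GelMA was lowest. CXCL8 had the same top pair, again overlapping, then BXPC3 in collagen and the 3 PANC1 groups, of which 7.5% GelMA spanned 5% GelMA and reached into the range of collagen. CXCL1 was highest in PANC1 in 5% GelMA, and the ranges of 4 of the other groups lay within that of BXPC3 in collagen. LIF was lowest in BXPC3 in collagen, and its 3 PANC1 groups were within 91.2 to 102 RPKM.

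Genes that signal around these ligands were counted from lists of textbook members. Between 7.5% and 5% GelMA in PANC1, 8 of 19 measured genes of the interleukin-6 family and its signalling were lower and 0 were higher by limma, where 2 were higher at an unadjusted p under 0.05. Of all genes tested, 18.7% were called in this comparison and 9.56% were called lower. The lowest were OSMR, the oncostatin M receptor, at -1.04 ± 0.05 log2 (adjusted p = 3.12e-06), and SOCS3, a feedback inhibitor of this pathway, at -1.01 ± 0.05 (adjusted p = 6.6e-06). LIFR at -0.69 ± 0.09 (adjusted p = 0.00085), IL6ST at -0.57 ± 0.06 (adjusted p = 0.000287) and the transcription factor gene STAT3 at -0.27 ± 0.03 (adjusted p = 0.000435) were among the 8 and were picked out after their values were seen. The median over the 19 genes was -0.22 log2, against 0.01 over all genes. The ligand LIF itself differed by 0.01 ± 0.05 log2 (adjusted p = 0.873). In BXPC3, where 0.0823% of all genes were called in this comparison, 0 of the 19 were called, and 0 had an unadjusted p under 0.05. With so few genes called, a count of 0 does not set this family apart.

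Of 10 other chemokine genes tested, 4 were lower and 1 was higher in PANC1 in 7.5% against 5% GelMA, with a median of -0.42 log2, beside the same 18.7% of all genes called and 9.56% called lower. CCL5, an attractant of T cells, was at -1.67 ± 0.17 log2 (adjusted p = 0.000194) and the interferon-induced CXCL10 at -1.61 ± 0.27 (adjusted p = 0.00301), a call lost on the log2(RPKM + 1) scale (adjusted p = 0.0585). CXCL16, a membrane-bound chemokine, was higher by 0.34 ± 0.08 (adjusted p = 0.0173), a call lost without some PANC1 GelMA libraries (adjusted p up to 0.115). CXCL5, the only other gene of the chromosome 4 cluster that was measured, had -0.62 and -0.91 log2 RPKM in PANC1 in 7.5% GelMA, 0.58 and 1.01 in 5% GelMA, and 1.66 and 1.22 in collagen. It fell by 1.42 ± 0.26 log2 (adjusted p = 0.00112) over both percentages against collagen in PANC1, with levels that descended in the order seen for ICAM1.

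Regulators of NF-kB were counted in the same comparison, in which 18.7% of all genes were called and 9.56% were called lower. Among 15 NF-kB subunits and kinases 1 was higher, NFKB2, the p100/p52 subunit gene, by 0.18 ± 0.05 log2 (adjusted p = 0.0280), a call lost without 3 of the 4 PANC1 GelMA libraries one at a time (adjusted p up to 0.203). Among 13 NF-kB inhibitors 3 were lower and 0 higher, with 1 higher at an unadjusted p under 0.05. They were led by NFKBIZ, a nuclear inhibitor-like cofactor, at -1.12 ± 0.07 log2 (adjusted p = 1.41e-05), and TNIP1, a partner of the A20 protein, at -0.43 ± 0.06 (adjusted p = 0.000792). Among 19 other NF-kB targets 8 were lower, with the complement gene C3 at -1.09 ± 0.16 log2 (adjusted p = 0.00131), and 3 were higher, with the T-cell costimulator gene TNFRSF9 at 1.57 ± 0.17 (adjusted p = 0.000287). NF-kB target genes therefore did not all move one way, as the plot of signalling genes in PANC1 shows.

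**Figure D4:**
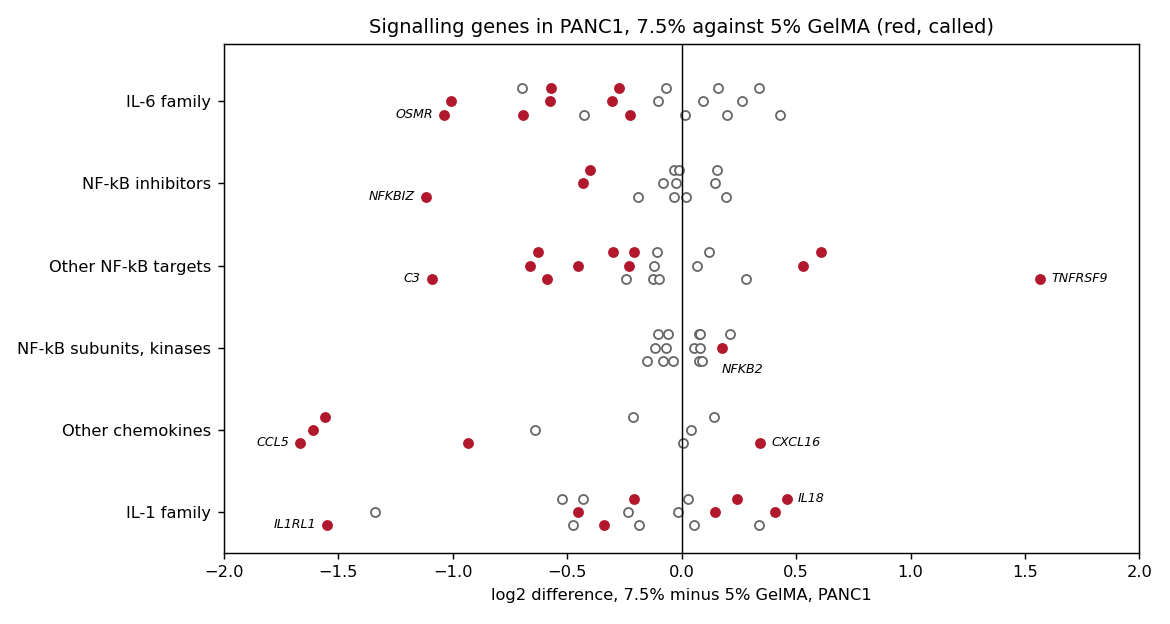
Log2 difference between 7.5% and 5% GelMA in PANC1 (x axis) for genes of 6 lists, where each point is 1 gene, red points were called at an adjusted p under 0.05, and vertical offsets only separate points. In the interleukin-6 family all 8 called genes are lower, while other NF-kB targets and the interleukin-1 family hold called genes on both sides of 0.

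The interleukin-1 family, to which IL1A belongs, had 4 genes higher and 4 lower of 18 in the same comparison (18.7% of all genes called), led by IL1RL1, the interleukin-33 receptor, at -1.55 ± 0.23 log2 (adjusted p = 0.00143), though under 1 RPKM in all PANC1 libraries and not called on the log2(RPKM + 1) scale (adjusted p = 0.311). IL1RAP, the coreceptor of IL1A, had 0.92 and 0.81 log2 RPKM in PANC1 in 7.5% GelMA, 1.25 and 1.38 in 5% GelMA, and 3.16 and 3.44 in collagen. It fell by 2.21 ± 0.10 log2 (adjusted p = 1.14e-07) in GelMA against collagen. IL18, another member, rose in that comparison by 1.95 ± 0.12 log2 (adjusted p = 6.02e-07). In PANC1 in GelMA against collagen, 4 of 18 in this family were higher and 4 lower when 55.1% of all genes were called, and in BXPC3 all 3 called genes were higher when 36.1% of all genes were called.

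In GelMA against collagen in PANC1, 7 of 19 interleukin-6 family genes were called, 3 higher and 4 lower, a smaller share than the 55.1% of all genes. IL6R, the interleukin-6 receptor, rose by 1.38 ± 0.12 log2 (adjusted p = 8.62e-06), and SOCS3 fell by 1.34 ± 0.05 log2 (adjusted p = 2.95e-08). SOCS3 was at 5.40 and 5.33 log2 RPKM in PANC1 in 7.5% GelMA, 6.40 and 6.34 in 5% GelMA, and 7.20 and 7.21 in collagen. In BXPC3, 2 of 19 were higher and 7 lower, when 36.1% of all genes were called. IL11, a cytokine of the family, rose there by 1.41 ± 0.21 log2 (adjusted p = 0.000766) beside LIF, and CTF1 fell by 0.80 ± 0.14 log2 (adjusted p = 0.00157).

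Other NF-kB targets in PANC1 in GelMA against collagen were called in 13 of 19, 5 higher and 8 lower, when 55.1% of all genes were called and 27.4% called lower, with MMP9 at -2.51 ± 0.38 log2 (adjusted p = 0.00031) and TNFRSF9 at 1.46 ± 0.15 (adjusted p = 2.5e-05). In BXPC3, where 36.1% of all genes were called, 5 were higher and 4 lower, and SOD2, a mitochondrial superoxide dismutase, rose by 0.59 ± 0.05 log2 (adjusted p = 3.09e-05). RELB, an NF-kB subunit, rose in BXPC3 by 0.43 ± 0.06 log2 (adjusted p = 0.000376). TNFAIP3, which encodes the inhibitor A20, rose in both lines, by 0.53 ± 0.07 log2 in PANC1 (adjusted p = 0.000126) and by 0.38 ± 0.07 in BXPC3 (adjusted p = 0.00233). Of 15 subunits and kinases, 4 were higher and 6 lower in PANC1 and 3 higher and 2 lower in BXPC3. Of 13 inhibitors, 5 were higher and 5 lower in PANC1 and 4 higher and 1 lower in BXPC3.

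Among 9 other leukocyte adhesion ligands, 1 was higher and 4 were lower in PANC1 in GelMA against collagen, as in BXPC3, when 55.1% and 36.1% of all genes were called in the 2 lines. ICAM5, a relative of ICAM1, fell in both, by 1.70 ± 0.07 log2 in PANC1 (adjusted p = 5.73e-08) and by 0.68 ± 0.07 in BXPC3 (adjusted p = 9.12e-05). ALCAM fell by 1.33 ± 0.06 log2 in PANC1 (adjusted p = 1.13e-07), where ICAM1 fell, while CD58, the ligand of CD2, rose by 0.66 ± 0.06 (adjusted p = 7.33e-06). Other cytokines were called higher in 2 and lower in 3 of 9 genes in PANC1, with CSF1, the macrophage growth factor, at -1.08 ± 0.11 log2 (adjusted p = 2.58e-05), and higher in 3 of 9 in BXPC3, with LTB at 1.19 ± 0.22 log2 (adjusted p = 0.00276). Of 5 chemokine receptors tested, CCRL2 was higher in PANC1 (not called on the log2(RPKM + 1) scale, adjusted p = 0.180) and limma called 0 in BXPC3, where 1 was lower at an unadjusted p under 0.05.

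Factors that bind AP-1 sites or C/EBP sites, and genes that act on the stability of cytokine messages, were called on both sides, against the same shares of all genes (55.1% in PANC1 and 36.1% in BXPC3). In PANC1 in GelMA against collagen, 3 of 10 AP-1 and C/EBP genes were higher and 5 lower, with CEBPD at -1.40 ± 0.08 log2 (adjusted p = 3.39e-07) and FOSB at 1.01 ± 0.12 (adjusted p = 8.02e-05). In BXPC3, 2 were higher and 3 lower, with JUND at 0.94 ± 0.08 log2 (adjusted p = 3.03e-05). ZFP36L2, whose protein binds AU-rich messages and speeds their decay, rose by 1.03 ± 0.03 log2 in PANC1 (adjusted p = 2.28e-08) and by 0.20 ± 0.03 in BXPC3 (adjusted p = 0.00187). Of 12 genes of message stability, 5 were higher and 4 lower in PANC1 and 2 higher and 3 lower in BXPC3. The list mixes opposite roles: ELAVL1, a stabiliser of AU-rich messages, was among the lower and MAPKAPK2, a kinase that restrains ZFP36, among the higher in PANC1, and DUSP1, a phosphatase acting upstream of that kinase, was among the higher in BXPC3.

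Between the lines, where 91.8% of all genes were called, most genes of these lists were called too. Shares of all genes called higher or lower were not taken, so the directions of the lists are description only. The interleukin-6 family was higher in PANC1 for 13 and lower for 4 of 19 genes, with a median of 0.74 log2 against 0.12 over all genes. The interleukin-1 family was higher for 2 and lower for 16 of 18, with a median of -3.13 log2, and other chemokines were higher for 1 and lower for 9 of 10, with a median of -4.28. Other NF-kB targets were higher for 6 and lower for 12 of 19, inhibitors higher for 4 and lower for 9 of 13, and subunits and kinases higher for 5 and lower for 10 of 15. Medians of these 3 lists were -0.46, -0.25 and -0.20 log2.

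Patterns most like each gene were taken by Pearson correlation of log2 RPKM over the 12 libraries after subtraction of each line's mean, as a description over libraries that share lines and matrices. SOCS3 was the nearest to ICAM1 of all genes tested, at r = 0.9936, and was also nearest without that subtraction, at 0.9959. BMP5 (0.9865) and NIBAN2 (0.9864) followed. CXCL2 was nearest to CABCOCO1 (0.966), NFIC (0.9573) and PRICKLE1 (0.9498), and CXCL8 to CDC73 (0.9699), PHAX (0.9669) and SMURF2P1 (0.948). LIF was nearest to PNO1 (0.9872), BMP7 (0.9836) and ANAPC7 (0.9772), and CXCL1 to ERVE-1 (0.9243), C3 (0.9071) and PRKG2 (0.9016). CXCL3 was nearest to RN7SL834P (0.9263), CCL2 to EXOSC6 (0.9219), CCL20 to LINC00920 (0.9317) and IL1A to SOX15 (0.9316). Among the 9 genes the closest pairs on this scale were CXCL8 with LIF (0.86), CXCL2 with ICAM1 (0.80) and CXCL2 with CXCL3 (0.76). Many genes outside the 9 were nearer. Among all genes tested, LIF ranked 75 for CXCL8 and CXCL8 ranked 336 for LIF. ICAM1 ranked 242 for CXCL2 and CXCL2 ranked 1194 for ICAM1. CXCL3 ranked 379 for CXCL2 and CXCL2 ranked 78 for CXCL3.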

How the data were processed

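The authors deposited 1 table of log2 RPKM values for 16299 Ensembl genes in 12 libraries, and 0 columns of it were left unmapped to a sample. Per the labels' protocols, an RNeasy kit served for extraction and poly-A capture for library preparation. HISAT2 2.1.0, HTSeq and the build hg38 (GRCh38) are named per the submitters' processing notes. The sources used here do not state the offset of the log, gene lengths, gene filter, annotation or strand setting. Sorted values were equal within 0.05 log2 across libraries for all but the lowest 2541 ranks, so the deposited values were taken to be quantile normalized. Such a step removes a change shared by most genes, and it leaves depth unknown.

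Symbols came from a table of gene names (16250 IDs) and GENCODE 29 (49 IDs). A gene entered the test if 2 or more libraries held 1 RPKM or more (15794 tested, 505 left out). The test was limma 3.58.1 under R 4.3.3, with lmFit, contrasts.fit and eBayes using a mean-variance trend, in 1 model of 6 group means (degrees of freedom 6 residual, 3.89 prior). Benjamini-Hochberg adjustment ran over all genes tested in each of 11 comparisons. GelMA against collagen used the mean of both GelMA groups. Intervals of differences are at the 95% level. The fit was tested on simulated data.

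The 10 genes, the lists and the alternatives were chosen with earlier results of these data known. Genes of a list were named as the 2 highest and 2 lowest called in a comparison within a line, at most, with exceptions marked in the text. Motifs were searched in RefSeq promoter windows (GRCh38.p14) on both strands. Alternatives were an added offset, other filters, no trend, centring, a fit within each line, the replicate block, and leaving out each library.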

Additional observations from a re-analysis of the deposited data

Results flagged for a closer look

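Among the 9 genes, 7 differences between the lines in a matrix effect passed the test of the difference itself (limma, PANC1 effect minus BXPC3 effect, adjusted over 15794 genes). For GelMA against collagen these were CXCL2 at -2.05 log2, ICAM1 at -1.38 log2, CXCL8 at -1.18 log2 and LIF at -0.75 log2. Of all genes, 39.1% passed in that comparison and 20.6% passed with a lower effect in PANC1. For 7.5% against 5% GelMA these were CXCL2 at -2.88 log2, CXCL1 at -1.35 log2 and ICAM1 at -0.90 log2. There, 8.97% of all genes passed and 4.96% passed with a lower effect in PANC1. CXCL2 and ICAM1 passed in both comparisons. In the mean of both GelMA percentages against collagen CXCL2 was called in both lines and in opposite directions, but at 5% GelMA alone it was at 0.35 log2 (not called) in PANC1 and 0.95 log2 in BXPC3, and at 7.5% GelMA at -2.44 log2 in PANC1 and 1.05 log2 in BXPC3. In the same mean, ICAM1 was called in PANC1 alone, and CXCL8 and LIF were called in BXPC3 alone. The summed level of COL1A1 and PDGFRA in PANC1, of which only COL1A1 reached 1 RPKM, was 211 to 418 RPKM in GelMA. In collagen it was 90.1 to 91.5 RPKM, and the part of these markers in the differences was not tested.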

How the results depend on the processing

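Of 36 member differences that were called, 31 kept their call and direction under every alternative that gave a value, and the exceptions were CXCL1 (5% GelMA against collagen in PANC1, and the line difference for 7.5% against 5%), CXCL3 (7.5% GelMA against collagen in PANC1), IL1A (5% GelMA against collagen in PANC1) and ICAM1 (5% GelMA against collagen in BXPC3). Over 1942 recomputed member values, 35 lost a call, 45 gained one, and 38 changed sign where neither fit called the gene. CCL20 in 7.5% against 5% GelMA in PANC1 ran from -2.14 to 1.86 log2 when 1 library was left out, and the reversal to 1.86 came without PANC1 7.5% GelMA replicate 1. With 1 library left out, the count of members called could rise in GelMA against collagen in PANC1 (2 with all libraries) and in BXPC3 (3 with all). It could also rise in 7.5% against 5% GelMA in PANC1 and in 7.5% GelMA against collagen in BXPC3 (3 with all in each). In 5% GelMA against collagen in PANC1 (3 with all) it could rise or fall. Counts over all genes changed in these fits as well, and no result is read from the shifts of the members. Fitted within PANC1 alone, GelMA against collagen gave 4, when 9235 of 15794 genes were called. Deviations of like-numbered libraries correlated at -0.0485 to 0.0771, so no shared deviation was seen. These values cannot tell whether like-numbered libraries were prepared together. With the replicate block, PANC1 in 7.5% against 5% GelMA had 4 calls, CXCL3 being added (adjusted p = 0.0121). Of 15794 genes, 2565 were called there. CXCL1 gained a call in 7.5% GelMA against collagen in PANC1 (0.0470) and between lines (0.0189). The 5% GelMA calls of IL1A in PANC1 (0.0573) and ICAM1 in BXPC3 (0.0557) were lost with the block. GelMA against collagen gave counts of 2 in PANC1, with 8380 of all genes called, and 3 in BXPC3, with 5252 called. Of 100 named list values, 66 kept their call under every alternative. The cause of these changes was not tested. Read depth is unknown, and with 2 libraries per group a missed call does not show equal levels. Fold changes of genes under 1 RPKM depend on the unknown offset.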
